A study of Saccharomyces cerevisiae with 5 samples.

Results

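The flocculin genes of budding yeast, Saccharomyces cerevisiae, were followed through genome-wide nucleosome maps. They were taken by systematic name, with earlier results of these data known: YAR050W (FLO1), YHR211W (FLO5), YAL063C (FLO9), YKR102W (FLO10) and YIR019C (FLO11). Of these 5 genes, 4 were read from the host tables, which hold 5264 host genes, and FLO11 was not analysed here. All 4 passed the filter on low signal that 5252 host genes passed.

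Flocculins are cell surface proteins that bind mannose chains or surfaces and so hold yeast cells together in clumps, films and filaments. Each has a secreted N-terminal adhesion domain, a long stretch rich in serine and threonine that is coded by tandem repeats, and a C-terminus that anchors the protein in the cell wall. FLO1, FLO5, FLO9 and FLO10 lie near chromosome ends, and the repeats and much of the adhesion domain of FLO1, FLO5 and FLO9 are near identical. In laboratory strains these genes are mostly silent. Cyc8 and Tup1, a corepressor, keep FLO1 off with ordered nucleosomes over its long upstream region, and Flo8 and the Swi/Snf remodeller are needed to turn it on.

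Chromatin was digested with micrococcal nuclease, which cuts the DNA between nucleosomes, and the DNA of single nucleosomes was sequenced from 5 strains, 1 library per strain. YAC1, YAC2 and YAC3 carry yeast artificial chromosomes with Kluyveromyces lactis DNA, and YAC6 and YAC7 carry artificial chromosomes with Debaryomyces hansenii DNA. All were grown in dextrose medium described as lacking tryptophan and uracil, with yeast extract, peptone and adenine. The labels give no host genotype beyond the artificial chromosome, and no strain without one was analysed here. The strains of a group carry their own artificial chromosomes and are replicates only for the host genes. Nothing in the labels gives separate cultures of 1 strain, so no error covers the spread between cultures. SDs are the spread between these 5 libraries or those of a group. SEs from limma also draw on the spread of other host genes.

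For every gene the deposited signal, a coverage of nucleosomal DNA scaled to a mean near 1, runs in 10 bp bins from -500 to +1000 bp of a listed start site. High signal means nucleosomal DNA was recovered there, and a typical host promoter is a gap in it. The scaled signal steps in fixed units, with a mean of 396 steps per bin in YAC3, 559 in YAC2, 726 in YAC7, 1479 in YAC6 and 1739 in YAC1. The depth in reads is unknown. The host median promoter gap was deeper in YAC1 and YAC6, at a log2 ratio of -2.28 in both, than in YAC2 (-1.76), YAC3 (-1.74) and YAC7 (-1.89). In the tests of signal ratios over all 5 libraries each gene was therefore compared with the host median of its own library. The strain groups were compared without this step. The median signal of chromosome I, which holds FLO1 and FLO9, was 1.18, 1.47, 1.73, 1.03 and 2.38 times the host median in YAC1, YAC2, YAC3, YAC6 and YAC7, and levels were therefore set against the gene's own chromosome. That of chromosome VIII, which holds FLO5, ranged from 0.636 to 1.06 times, and that of chromosome XI, which holds FLO10, from 0.577 to 0.989 times. The selectable genes TRP1 and URA3 stood at 1.63 to 2.13 and 1.49 to 1.94 times the median of their chromosomes.

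**Figure D1:**
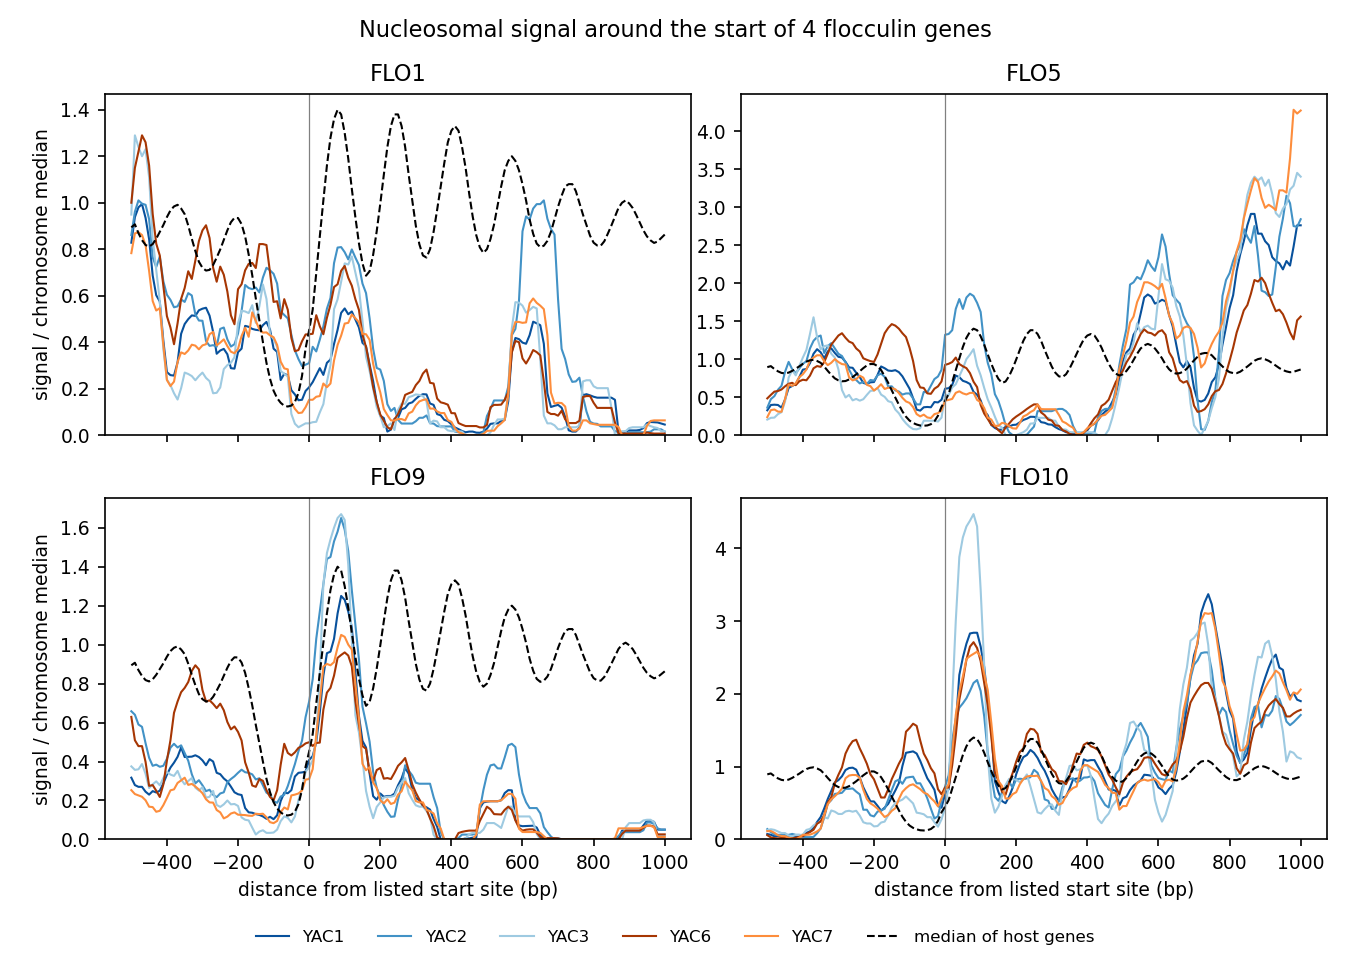
Nucleosomal signal divided by the median gene signal of the chromosome (y axis, a different scale in each panel) against distance from the listed start site in bp (x axis), for FLO1, FLO5, FLO9 and FLO10, with 1 line per library and a dashed line for the median host gene. The host line dips before the start, while FLO1, FLO5 and FLO9 are low between 200 and 500 bp after it, and FLO10 is near 0 from -500 to -400 bp and filled before the start.

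The 4 flocculin genes did not share one landscape. FLO10 had signal across its promoter and a body at about the chromosome's level. FLO1, FLO5 and FLO9 had little signal in the first part of the gene body. FLO5 recovered to high signal late in the window, which FLO1 and FLO9 did not.

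Promoter filling was first measured as a log2 ratio of the mean signal between -120 and -20 bp to the mean signal between +100 and +500 bp, with 0.1 times the gene's mean signal added to both. On this scale the median host promoter was near -2. FLO1, the flocculin with the best studied repression, had ratios of 0.77, 1.25, 0.54, 1.26 and 0.70 in YAC1, YAC2, YAC3, YAC6 and YAC7. All 5 values were above 0, so its promoter window held more signal than its body in every library. FLO5, a close relative of FLO1, had 0.94, 0.58, -0.14, 1.44 and 0.23. FLO9, the other close relative, had -0.29, -0.17, -1.04, 0.41 and -0.55. FLO10, which is the most diverged of the 4 and shares control by Flo8, had 0.012, -0.27, -0.83, 0.11 and -0.39. For each of the 4 genes YAC3 gave the lowest ratio. YAC6 gave the highest, only just above YAC2 for FLO1.

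Relative to the host median of each library, the mean offset was 2.89 for FLO1 (SE 0.19, adjusted p = 5.49e-06 in limma), 2.60 for FLO5 (SE 0.29, adjusted p = 8.34e-05), 1.66 for FLO9 (SE 0.26, adjusted p = 0.000595) and 1.72 for FLO10 (SE 0.23, adjusted p = 0.000231). Each was above the host median in 5 of 5 libraries, as were 30.4% of host genes. All 4 genes were thus called higher, where 32.3% of the 5252 host genes were called higher and 32.2% lower. Among the host promoters of a library, FLO1 exceeded between 95.4% and 99.7%, FLO5 between 88.9% and 99.8%, FLO9 between 72.3% and 97.1% and FLO10 between 77.4% and 95.2%.

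**Figure D2:**
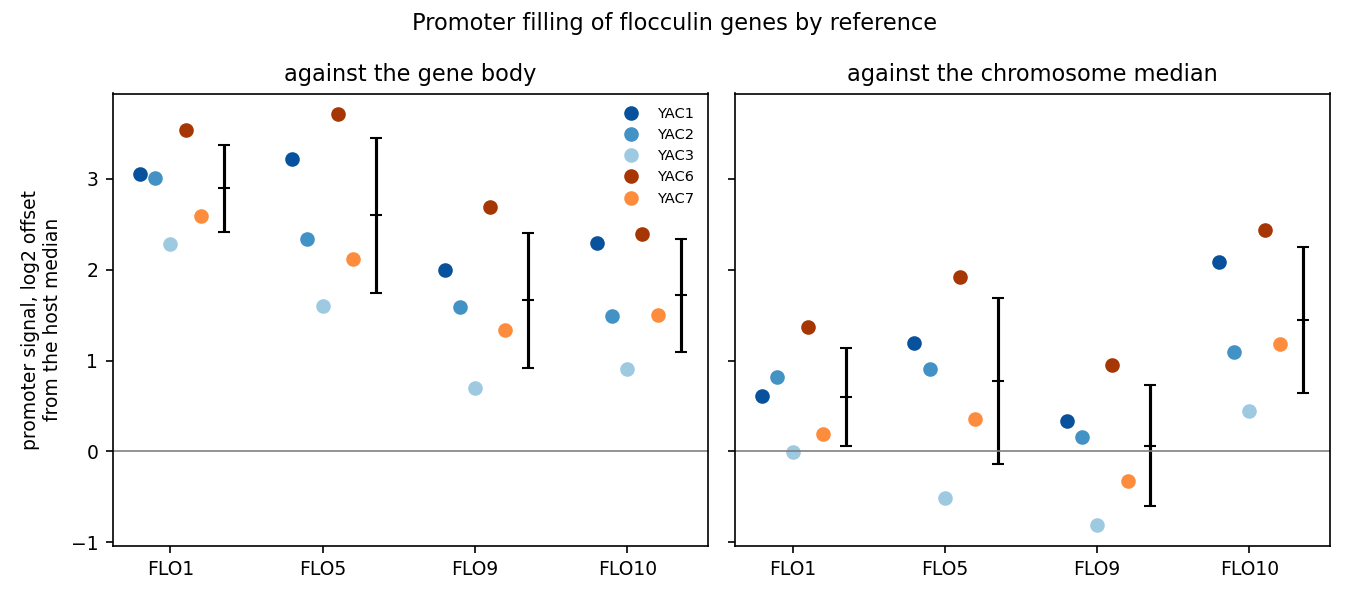
Promoter ratio minus the host median of the same library (y axis, log2) for each flocculin gene (x axis), with the gene body as the reference and with the chromosome's median signal as the reference, 1 point per library and a black bar for the mean ± SD of 5 libraries. With the body as reference every point lies above 0, whereas with the chromosome as reference only FLO10 has all 5 points above 0.

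The reference window mattered for this result, because the bodies of FLO1, FLO5 and FLO9 were themselves low. Between +100 and +500 bp the deposited signal of FLO1 was 0.182, 0.347, 0.316, 0.205 and 0.367 in YAC1, YAC2, YAC3, YAC6 and YAC7. FLO5 had 0.212, 0.259, 0.146, 0.260 and 0.268, and FLO9 had 0.318, 0.590, 0.447, 0.277 and 0.572. The host median there was 1.14, 1.30, 1.18, 1.09 and 1.08, so all 3 genes were below it in every library. FLO10 had 0.916, 0.555, 0.553, 1.11 and 0.812. It was nearer to the host median than the 3 other genes in every library but YAC2, where FLO9 was nearer. As a fraction of the median body signal of their own chromosome, FLO1 had 0.121 to 0.176, FLO5 0.165 to 0.315, FLO9 0.182 to 0.279 and FLO10 0.675 to 1.03.

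With the chromosome's median gene signal in place of the gene body, a reference chosen after the data were seen, FLO10 stayed clearly above the host median. Its offsets were 2.08, 1.09, 0.45, 2.44 and 1.18, with a mean of 1.45 (SE 0.27, adjusted p = 0.00146 in limma). FLO10 was called higher without each library in turn, at 1.2 to 1.7. FLO1 had offsets of 0.61, 0.82, -0.0039, 1.37 and 0.19 and a mean of 0.60 (SE 0.20, adjusted p = 0.0292). FLO5 had 1.19, 0.91, -0.51, 1.92 and 0.36 and a mean of 0.77 (SE 0.30, adjusted p = 0.0482). FLO1 and FLO5 were thus called by a small margin and were above the host median in 4 of 5 libraries, with YAC3 the exception. The FLO1 call was lost without YAC1 (adjusted p = 0.0720), YAC2 (0.103) or YAC6 (0.0609), and the FLO5 call without YAC1 (0.124), YAC2 (0.135), YAC6 (0.10) or YAC7 (0.0706). Leaving out YAC3 raised FLO5 to 1.10 (adjusted p = 0.00287).

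FLO9 had chromosome-based offsets of 0.34, 0.16, -0.81, 0.95 and -0.32, with a mean of 0.064 (SE 0.23, adjusted p = 0.817 in limma). Its promoter was not distinguishable from the median host promoter on that scale. In the same fit 33.0% of host genes were called higher and 32.8% lower, so a call of higher for 3 of the 4 members also rests on a common outcome. The deposited promoter signal itself was 0.925, 0.447, 0.279, 1.21 and 0.598 for FLO10 and 0.332, 0.915, 0.479, 0.543 and 0.634 for FLO1, against a host median of 0.150, 0.287, 0.279, 0.143 and 0.224. FLO1 was above the host median in every library, and FLO10 was above it everywhere but in YAC3, where both were 0.279. FLO5 had 0.492, 0.428, 0.125, 0.851 and 0.333, and FLO9 had 0.256, 0.518, 0.195, 0.378 and 0.375, both below the host median in YAC3 alone.

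**Figure D3:**
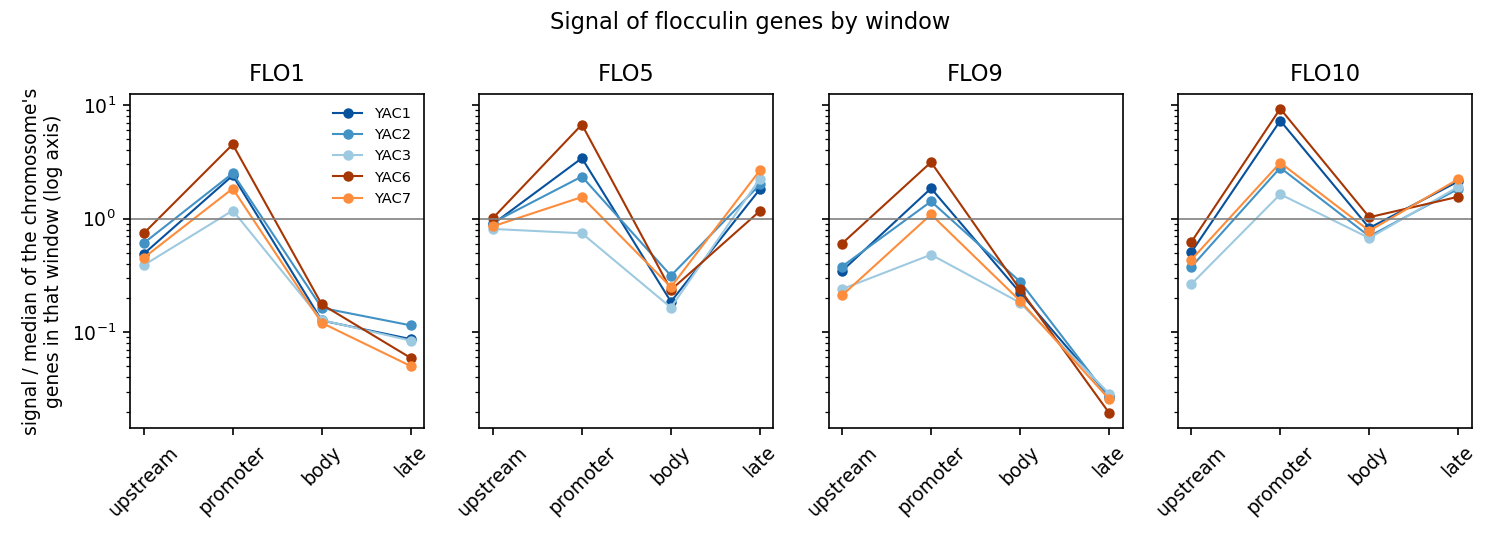
Signal divided by the median of the chromosome's genes in the same window (y axis, log scale), for the upstream, promoter, body and late windows of FLO1, FLO5, FLO9 and FLO10. Each library has 1 line, and a grey line marks a ratio of 1. The bodies of FLO1, FLO5 and FLO9 lie below 1. In the late window FLO5 and FLO10 lie above 1, while FLO1 and FLO9 lie far below it.

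The order of the 4 promoters depended on the reference. By the body-referenced ratio the order was FLO1, FLO5, FLO10 and FLO9, with means of 0.90 ± 0.33, 0.61 ± 0.61, -0.27 ± 0.37 and -0.33 ± 0.53 (SD, n = 5). FLO5 exceeded FLO10 by 0.88 ± 0.28 in 5 of 5 libraries (exact two-sided sign-flip test, p = 0.0625, the smallest that 5 libraries allow, and 0.188 adjusted over the neighbouring pairs). FLO1 exceeded FLO5 in 3 of 5 libraries (0.30 ± 0.43, exact p = 0.250, adjusted 0.375) and FLO10 exceeded FLO9 in 3 of 5 (0.056 ± 0.25, exact p = 0.688), so neither pair could be ordered. By the chromosome-referenced value the order was FLO10, FLO5, FLO1 and FLO9. There FLO10 exceeded FLO5 by 0.67 ± 0.33 and FLO1 exceeded FLO9 by 0.53 ± 0.21, each in 5 of 5 libraries (exact p = 0.0625, adjusted 0.0938), while FLO5 and FLO1 could not be ordered (0.18 ± 0.44, exact p = 0.312).

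Further upstream, from -450 to -150 bp, the genes parted. FLO10 was low: its deposited signal was 0.457, 0.249, 0.175, 0.593 and 0.368 against a host median of 0.941, 1.08, 0.980, 0.977 and 0.916. The log2 ratio of upstream to body signal of FLO10 was -0.86, -0.97, -1.33, -0.79 and -0.96, an offset of -0.77 from the host median (SE 0.12, adjusted p = 0.000790 in limma, lower in 5 of 5 libraries). Against the chromosome's signal FLO10 was also lower, by -1.06 (SE 0.15, adjusted p = 0.000767). In the shorter window from -300 to -150 bp its body-referenced offset was -0.22 (adjusted p = 0.177), whereas with the chromosome as reference, chosen after the data were seen, it was called lower there too (-0.51, SE 0.18, adjusted p = 0.0317). The libraries were uneven nearer the start: between -300 and -200 bp FLO10 had 0.795, 0.399, 0.234, 1.12 and 0.688 against a host median of 0.849, 0.994, 0.856, 0.907 and 0.816. YAC2 and YAC3 were far below the host median there and YAC6 was above it.

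Farther out FLO10 had a near-empty stretch in every library. From -500 to -410 bp its deposited signal was 0.0444, 0.0529, 0.0648, 0.0244 and 0.0491, where the host median ranged from 0.876 to 1.05, and only 0.952% to 1.71% of host genes were lower. As a fraction of the chromosome's median signal the level of FLO10 rose from 0.0582 ± 0.0258 (SD, n = 5) between -500 and -400 bp to 0.272 ± 0.0466 in the next 100 bp and 0.722 ± 0.301 in the one after that. In a search from -500 to 0 bp the lowest 100 bp of FLO10 began at -490, -460, -480, -490 and -470 bp, with a signal of 0.0431, 0.0361, 0.0598, 0.0230 and 0.0372. In a search that stopped at -400 bp the lowest stretch of FLO10 began at that bound in every library, while the host median began at -120 bp in 4 libraries and at -130 bp in YAC3.

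FLO1 and FLO5 had upstream signal that was high relative to their bodies. The upstream ratio of FLO1 was 1.39, 1.33, 1.03, 1.63 and 1.24, an offset of 1.54 (SE 0.12, adjusted p = 0.000198 in limma). The ratio of FLO5 was 1.7, 1.18, 1.7, 1.73 and 1.30, an offset of 1.74 (SE 0.14, adjusted p = 0.000198). Both were called higher, as were 34.2% of host genes, and 33.6% were called lower. FLO9 had 0.21, 0.032, -0.053, 0.99 and -0.35, an offset of 0.38 (SE 0.17, adjusted p = 0.0763) that did not pass. Without YAC7 it was 0.51 (adjusted p = 0.0420).

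The chromosome reference turned these directions. FLO1 was then below the host median by -0.84 (SE 0.13, adjusted p = 0.000921 in limma) and FLO9 by -1.35 (SE 0.18, adjusted p = 0.000552). FLO5 did not differ detectably, at -0.11 (SE 0.071, adjusted p = 0.197). On this scale 3 of the 4 genes were called lower, as were 34.1% of host genes, with 35.8% called higher. The deposited upstream signal of FLO5 was 0.904, 0.695, 0.650, 1.06 and 0.816, that of FLO1 was 0.526, 0.971, 0.696, 0.712 and 0.942, and that of FLO9 was 0.373, 0.605, 0.429, 0.579 and 0.440. FLO9 was thus the lowest of these 3 in every library.

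Because the origin of the listed start sites is not known, the deepest 100 bp stretch between -400 and 0 bp was also taken, relative to the gene's mean signal. It was shallower than the host median for FLO1 by 2.14 (log2, SE 0.19, adjusted p = 1.60e-05 in limma), for FLO9 by 1.57 (SE 0.24, adjusted p = 0.000364), for FLO5 by 1.15 (SE 0.28, adjusted p = 0.00491) and for FLO10 by 0.66 (SE 0.16, adjusted p = 0.00500). All 4 were called shallower, as were 28.9% of host genes, with 28.4% called deeper. For FLO10 this held only because the search stopped at -400 bp, short of its near-empty stretch. With the search from -500 to 0 bp, chosen after the data were seen, FLO10 was called deeper (-0.58, SE 0.10, adjusted p = 0.000787) and FLO1 (2.19), FLO9 (1.61) and FLO5 (1.17) were again called shallower, where 28.2% of host genes were called shallower and 27.8% deeper. With the chromosome as the reference and the search from -400 bp, FLO5 (1.11, adjusted p = 0.00528), FLO10 (0.75, adjusted p = 0.00472) and FLO1 (0.74, adjusted p = 0.0160) were still called, where 29.6% of host genes were called shallower and 28.6% deeper, and FLO9 was not (0.18, adjusted p = 0.508). With a 50 bp stretch the FLO10 offset was 0.12 (adjusted p = 0.551).

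After the start site, the first peak of signal within 150 bp stood at 80, 80, 70, 80 and 80 bp in FLO10 and at 90, 80, 80, 90 and 90 bp in FLO9. The host median was 80 bp in 4 libraries and 90 bp in YAC3, so these 2 genes had their first nucleosome peak near the usual place. FLO1 peaked at 110, 100, 110, 100 and 120 bp, and FLO5 at 40, 60, 70, 30 and 50 bp. From +40 to +120 bp the deposited signal of FLO10 was 2.45, 1.30, 2.59, 2.29 and 2.19, above the host median of 1.31, 1.40, 1.17, 1.39 and 1.18 in every library but YAC2. FLO9 had 1.27, 2.59, 2.77, 0.876 and 2.22, above the host median in YAC2, YAC3 and YAC7, the libraries where chromosome I was raised most. Relative to the median of the same window over its chromosome, FLO9 had 0.697, 1.07, 1.04, 0.545 and 0.669, above 1 in YAC2 and YAC3 only, and FLO10 had 1.86, 1.52, 2.99, 1.60 and 1.81, above 1 in every library.

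Past the first peak, signal fell away in the 3 near-identical genes. In their mean profiles the lowest bin between 300 and 600 bp was at 460 bp in FLO1, 380 bp in FLO5 and 410 bp in FLO9. In FLO9, 21, 21, 32, 22 and 28 of the window's bins held a signal of exactly 0, and 18 of these bins were at 0 in all 5 libraries, 4 of them from 380 to 410 bp and 14 from 720 to 850 bp. FLO9 was among the 7 of 5252 host genes (0.133%) that had 20 or more bins at 0 in every library. This cutoff lies just below the lowest count of FLO9, and genes removed by the signal filter were not counted. FLO1 had 0, 5, 8, 0 and 12 bins at 0, FLO5 had 0, 4, 8, 1 and 0, and FLO10 had a single one, in YAC7.

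From 0 to 500 bp the mean profiles of the 4 genes correlated once shifted along the gene, a measure that ignores level. Between 300 and 400 bp FLO10 stood at 0.770 times its chromosome's median signal. FLO1, FLO5 and FLO9 stood at 0.118, 0.113 and 0.116 times there. The Pearson correlation over bins of the mean profiles of FLO1 and FLO9 was 0.880 in place and 0.990 after a shift of 30 bp, and that of FLO1 and FLO5 was 0.392 in place and 0.927 after a shift of 80 bp. That of FLO5 and FLO9 was 0.706 in place and 0.965 after a shift of -30 bp. FLO10 and FLO9 had 0.876 in place, and the shifted values of FLO10 with the 3 genes ran from 0.845 to 0.901. Over the whole window the correlation was low for FLO5, at 0.0253 with FLO1 and -0.167 with FLO9 after the best shift, and FLO1 and FLO9 had 0.575. Other host gene pairs were not compared in this way. Neighbouring bins are not independent and shifts were chosen for the best fit, so these are descriptions. Whether the low and empty bins come from reads that match more than 1 flocculin gene was not tested, as the authors' handling of such reads is not given in the sources used here.

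Late in the window, from +700 to +1000 bp, FLO5 stood apart from its relatives. Its deposited signal was 1.97, 1.46, 1.83, 1.29 and 2.62 against a host median of 1.01, 1.11, 1.02, 1.07 and 0.915. FLO1 had 0.0958, 0.172, 0.148, 0.0609 and 0.104, and FLO9 had 0.0300, 0.0395, 0.0505, 0.020 and 0.0530. FLO5 was above the host median and FLO1 and FLO9 far below it in every library. With each gene divided by its chromosome's median late signal, FLO5 made up 93.4% to 97.2% of the sum over the 3 genes, and that sum was 1.94, 2.14, 2.37, 1.25 and 2.75. FLO10 was high there too, at 2.09, 1.23, 1.35, 1.62 and 1.99.

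As a log2 ratio to the gene body, late signal was higher than the host median by 2.74 for FLO5 (SE 0.78, adjusted p = 0.00869 in limma) and by 1.18 for FLO10 (SE 0.16, adjusted p = 0.000132). It was lower by -0.86 for FLO1 (SE 0.13, adjusted p = 0.000203) and by -2.42 for FLO9 (SE 0.27, adjusted p = 9.28e-05). In that fit 34.0% of host genes were called higher and 34.7% lower. The FLO5 call was lost without YAC1 (2.7, adjusted p = 0.0732) or YAC2 (2.84, adjusted p = 0.106), although the value barely moved. These SEs also draw on a trend over all host genes and are not the spread of the gene alone. The SD of the FLO5 offsets was 0.53 (n = 5), below its SE of 0.78. Between +800 and +900 bp FLO5 reached 2.42 ± 0.483 times its chromosome's median signal (SD, n = 5).

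Over the whole window, FLO1 and FLO9 carried little signal for their chromosome. FLO1 stood at 0.264, 0.382, 0.258, 0.367 and 0.248 times the chromosome I median, and FLO9 at 0.240, 0.332, 0.225, 0.30 and 0.197 times. As log2 offsets these were -1.74 (SE 0.15, adjusted p = 0.000521 in limma) and -1.98 (SE 0.16, adjusted p = 0.000521). Both were called lower, as were 32.7% of host genes. FLO5 was at 0.905, 1.11, 0.923, 0.833 and 1.04 times the chromosome VIII median (-0.065, adjusted p = 0.391), and FLO10 at 1.14, 0.999, 1.05, 1.14 and 1.07 times the chromosome XI median (0.11, adjusted p = 0.0544). Against the host median of the library in place of the chromosome, FLO1 (-1.17) and FLO9 (-1.40) were also low.

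The next genes in the tables on either side did not share one state. Other annotated genes lie between some of them and the flocculin gene: 5 before SEO1, 2 before YHR213W-A and 1 each before YAR064W and SKG1. SWH1, which codes for an oxysterol-binding protein and lies on the inner side of FLO1, had a deep promoter (-3.59 ± 0.26, SD, n = 5, offset -1.60, adjusted p = 2.46e-05 in limma), the lowest mean among the 309 chromosome-end genes tested. On the other side of FLO1, YAR064W had a ratio of -0.23 ± 0.32 (offset 1.76, adjusted p = 6.64e-05 in limma). Its level was -2.99 ± 0.54 on the log2 scale against its chromosome. On the inner side of FLO9, GDH3, a glutamate dehydrogenase gene, had -0.78 ± 0.48 (offset 1.21, adjusted p = 0.00171) and a level of -0.65 ± 0.27. SEO1, a permease gene and the next one outward in the tables, was listed at 0 in every bin of all 5 libraries and was not tested. Beside FLO5, YHR210C had a deep promoter (-2.84 ± 0.41, offset -0.85, adjusted p = 0.000460). YHR213W-A had one that was high relative to its body (1.44 ± 0.37, offset 3.43, adjusted p = 1.66e-06), with a low level of -1.24 ± 0.57 against its chromosome. Beside FLO10, SKG1 had -2.82 ± 0.32 (offset -0.83, adjusted p = 0.000133) and NFT1, a transporter gene, had -1.08 ± 0.40 (offset 0.91, adjusted p = 0.00806) and a level of -0.77 ± 0.40. SWH1, YHR210C and SKG1 were thus called lower, as were 32.2% of host genes. YAR064W, GDH3, YHR213W-A and NFT1 were called higher, as were 32.3% of host genes.

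The strain groups were then compared, which asks whether the origin of the artificial chromosome went with the state of these host genes. The mean promoter ratio of FLO1 was 0.85 ± 0.36 (SD, n = 3) in the K. lactis strains and 0.98 ± 0.39 (n = 2) in the D. hansenii strains, and that of FLO5 was 0.46 ± 0.55 and 0.83 ± 0.85. FLO9 had -0.50 ± 0.48 and -0.071 ± 0.68, and FLO10 had -0.36 ± 0.43 and -0.14 ± 0.35. The difference in this ratio, K. lactis minus D. hansenii, was -0.13 for FLO1 (SE 0.32), -0.38 for FLO5 (SE 0.44), -0.43 for FLO9 (SE 0.42) and -0.22 for FLO10 (SE 0.36), each with an adjusted p of 1.00 in limma. These ratios were not set against the host median of each library, so library-wide shifts in gap depth remain in the differences. None of the 4 genes had groups that did not overlap, as against 7.48% of host genes.

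For the upstream ratio the differences were -0.18 for FLO1 (SE 0.28), 0.017 for FLO5 (SE 0.33), -0.26 for FLO9 (SE 0.36) and -0.17 for FLO10 (SE 0.27), and again no gene's groups stood apart, as against 9.01% of host genes. In limma 0 of 5252 host genes were called in either comparison, and 7 (0.133%) and 15 (0.286%) had an unadjusted p under 0.05, none of them flocculins. With 3 strains against 2, standard errors of this size and adjustment over 5252 genes, changes larger than the spread between strains could be missed. The lack of calls thus does not show that the groups were alike. Of the 20 combinations of gene and measure, 1 had groups apart: the late ratio of FLO1 was -0.81 ± 0.074 in the 3 K. lactis strains and -1.35 ± 0.069 in the 2 D. hansenii strains (exact permutation test, two-sided, p = 0.10, the smallest that 10 splits allow). For the late ratio 9.81% of host genes had groups apart.

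The regulators of flocculation were looked at by their own promoters, as a list chosen for its role. Of 15 genes that code for transcription factors acting on flocculins, 5 were called higher, 3 lower and 7 neither, with a median offset of 0.31 beside 0.019 over all host genes. The share called higher, 33.3%, was near the 32.3% of all host genes, and 20% were called lower beside 32.2%. With the chromosome as reference 3 were called higher and 2 lower. FLO8, the activator of FLO1, FLO9, FLO10 and FLO11, had the fullest promoter of the list (-0.90 ± 0.75, SD, n = 5, offset 1.09, adjusted p = 0.00166 in limma), and RIM101, a repressor in the response to alkaline pH, the deepest (-2.96 ± 0.25, offset -0.97, adjusted p = 0.000312). Of 12 corepressor and chromatin genes 1 was called higher and 3 lower (median -0.078), and with the chromosome as reference 3 were called higher and 5 lower. TUP1, which codes for a subunit of the corepressor and was chosen after its values were seen, was lower (-2.99 ± 0.47, offset -1.0, adjusted p = 0.000185). CYC8, which codes for its partner, was higher (-0.69 ± 0.52, offset 1.30, adjusted p = 0.00234), and RPD3, a histone deacetylase gene, was the deepest of this list (-3.31 ± 0.11, offset -1.32, adjusted p = 2.35e-05).

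Of 15 genes of the protein kinase A and filamentation MAP kinase pathways, 5 were called higher, 5 lower and 5 neither (median 0.28), a share of 33.3% each way beside 32.3% and 32.2% of all host genes. Against the chromosome's signal 7 were called higher and 3 lower. The genes of these pathways ran from TPK2, a catalytic subunit of protein kinase A (-3.28 ± 0.29, offset -1.29, adjusted p = 2.69e-05 in limma), to CYR1, the adenylate cyclase gene (0.27 ± 0.16, offset 2.26, adjusted p = 3.65e-06). Of 16 genes for other cell wall mannoproteins and adhesins 6 were called higher and 2 lower (median 0.35), 37.5% and 12.5% beside 32.3% and 32.2% of all host genes. On the chromosome reference 6 were called higher and 1 lower (37.5% and 6.25%), beside 33.0% and 32.8% of all host genes. CCW14 was the deepest (-2.98 ± 0.21, offset -0.99, adjusted p = 4.81e-05), and DAN4, a cell wall protein of anaerobic growth, the fullest (0.82 ± 0.13, offset 2.81, adjusted p = 3.85e-06). CYC8 lies on chromosome II and CYR1 and DAN4 on chromosome X. SAG1 (offset 2.29) and DAN1 (offset 1.88), also among the cell wall genes called higher, lie on chromosome X too. Listed start sites on both chromosomes were off the nucleosome pattern in an earlier look at these tables. The part of this in the values of these genes and in the list counts was not tested.

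**Figure D4:**
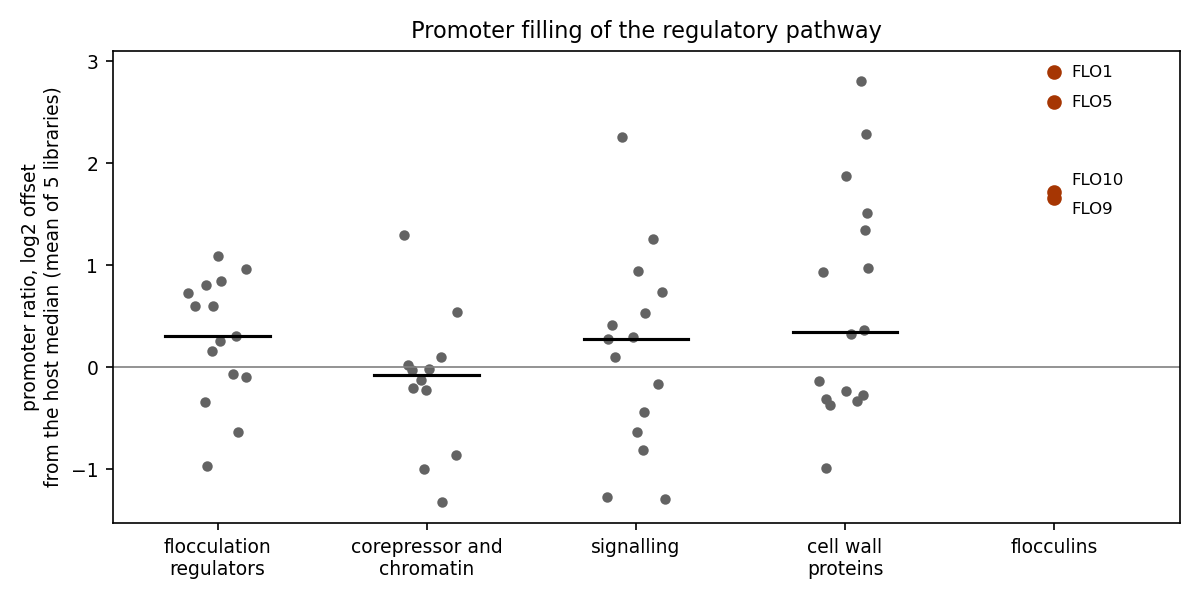
Mean offset of the promoter ratio from the host median (y axis, log2, mean of 5 libraries) for the genes of 4 lists and the flocculins (x axis), with 1 point per gene and a bar at each list's median. The list medians lie between -0.078 and 0.35, with single genes up to 2.81 (DAN4), and the flocculins lie between 1.66 and 2.89. The gene body is the reference here. With the chromosome as reference, not drawn, the offset was 0.60 for FLO1, 0.77 for FLO5, 0.064 for FLO9, 1.45 for FLO10 and 2.14 for DAN4.

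Among the 10 outermost genes at each chromosome end, 120 of 309 were called higher (38.8%) and 88 lower (28.5%), beside 32.3% and 32.2% of all host genes, with a median offset of 0.10. Against the chromosome's signal 37.9% were called higher and 99 genes lower, and the median offset of 0.027 was that of all host genes (0.026). PAU10, of the seripauperin family, was the fullest of the chromosome-end genes (2.94 ± 0.28, offset 4.93, adjusted p = 7.84e-07 in limma), and with the chromosome as reference its offset was 2.39 (adjusted p = 2.17e-06). FLO9 and FLO10 ranked 2nd from their chromosome ends among genes in the tables, FLO5 3rd and FLO1 5th. In the body-referenced upstream ratio 10 of the 15 regulator genes were called lower and 2 higher (median -0.72), beside 33.6% and 34.2% of all host genes. Other lists leaned this way too. Of 15 kinase pathway genes 8 were lower and 2 higher, and of 16 cell wall genes 8 were lower and 4 higher. The 12 corepressor and chromatin genes had 5 each way. With the chromosome as reference 7 regulators were called lower and 2 higher (median -0.55), beside 34.1% and 35.8% of all host genes. There 7 kinase pathway genes were lower and 4 higher. Of the cell wall genes 10 were lower and 1 higher, and of the corepressor and chromatin genes 4 and 3.

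The shape of each flocculin profile recurred between libraries about as well as that of other genes. The median correlation of a gene's profile between libraries was 0.875 for FLO1, 0.885 for FLO5, 0.938 for FLO9 and 0.880 for FLO10, beside a host median of 0.863 (quartiles 0.819 and 0.898). No other flocculin was among the 2 host genes whose mean profile was most like a member's over the bins of the whole window. These were YOL038C-A (0.786) and CCM1 (0.769) for FLO1, PPH21 (0.739) and CYT1 (0.722) for FLO5, YPR145C-A (0.846) and SPC72 (0.845) for FLO9, and AAT2 (0.839) and SLM5 (0.805) for FLO10.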

How the data were processed

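The deposited signal, per the file headers, is coverage of nucleosomal DNA by gene in 10 bp bins around a start site. The authors scaled it to a mean near 1, and its values are whole multiples of a step (within 0.02 steps) but not reads, so no count model was used and no counting interval is given. CASAVA 1.7.0 is named in the submitters' processing notes. No source used here gives the aligner, the build, the handling of repeated sequence or where start sites came from. Symbols and gene order came from RefSeq assembly R64, in which 5261 of 5264 host identifiers matched, after 214 suffix letters found in the strand column were put back.

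Genes under 10% of the host median signal in any library were left out, which kept 5252. Each measure minus its library's host median was tested against 0 over the 5 libraries with limma 3.58.1 in R 4.3.3 (empirical Bayes with a mean trend). The level, a log2 ratio to the chromosome median, was tested without that subtraction. The groups were compared in limma on the ratios without it, so library-wide shifts were not removed there. Benjamini-Hochberg adjustment ran over all 5252 genes, with a threshold of 0.05. The procedure was tested on simulated data. Neighbouring members were compared by exact sign-flip tests. Named genes are the members, the lowest and highest promoter of each list, the next gene in the tables on either side and the 2 most similar profiles. The members and lists were chosen with earlier results of these data known. Alternatives were other windows, pseudocounts, filters, no trend, leaving out each library and, after the data were seen, the chromosome reference and a search for the deepest stretch from -500 bp. ASH1, SWI1, RAS2, CWP2 and CCW12 of the lists were not analysed here.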

Additional observations from a re-analysis of the deposited data

How the results depend on the processing

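No paired analysis was possible because the replicate numbers only name strains. With the body as reference, all 4 members were called for promoter filling under every planned setting, with FLO9 at 1.41 to 1.90 without each library in turn. The size moved: with the whole window as reference FLO5 fell from 2.60 to 0.82 (adjusted p = 0.0475 in limma), and from -200 to 0 bp FLO9 fell from 1.66 to 0.82 and FLO10 from 1.72 to 0.62. With a pseudocount of 0.5 times the gene mean the 4 offsets were 0.94 to 1.80. With the chromosome as reference 3 were called, and 1 to 3 without each library, where FLO9 ran from -0.16 to 0.28. For the upstream region that reference gave -0.84 for FLO1, -0.11 for FLO5 and -1.35 for FLO9, with ranges of -0.94 to -0.77, -0.15 to -0.083 and -1.51 to -1.23 without each library, where the body reference gave 1.47 to 1.61, 1.68 to 1.82 and 0.19 to 0.51. With that reference and the window from -300 to -150 bp these were -0.80, -0.14 and -1.43. With the whole window as reference FLO5 upstream was -0.062. With the search for the deepest stretch from -500 bp FLO10 was -0.58. FLO10's level against the host median was -0.20, where 2040 host genes were called instead of 3518. With a pseudocount of 0.5 times the gene mean, 2 neighbouring pairs in the order had 1 sign in every library instead of 1.

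Between the groups no alternative called any member. Without each library in turn, the promoter differences ran from -0.41 to 0.15 for FLO1, -0.98 to 0.23 for FLO5, -0.91 to 0.052 for FLO9 and -0.47 to 0.023 for FLO10. The upstream differences ran from -0.38 to 0.013, -0.20 to 0.23, -0.92 to 0.41 and -0.27 to -0.037. A lone D. hansenii strain was assumed to vary like the others. The FLO5 upstream difference was -0.034 with the larger pseudocount, -0.27 from -300 to -150 bp and -0.13 with the whole window. The cause of these changes was not tested, except that the FLO10 stretch lies beyond -400 bp. The unknown depth in reads limits every low value, FLO1 and FLO9 most. Of 360 member values under alternatives, 302 kept their direction and call, 40 changed sign, 16 lost the call and 2 gained it.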
